A study of Platynereis dumerilii with 97 samples.

Results

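In hourly embryos of the marine annelid Platynereis dumerilii, 20 of 10908 transcripts were nearly silent up to 23 h after fertilization, were present at 25 to 36 h and had mostly gone by 73 to 94 h. They were chosen on those 3 blocks of hours alone. A member had at most 3 counts per 1000000 counts of its libraries (CPM) pooled over 1 to 23 h, at least 20 CPM over 25 to 36 h, and less than 0.25 of that level over 73 to 94 h. The levels in these blocks therefore describe the choice and support nothing further. A further 47 transcripts met the early and onset criteria and not the late one.

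A single whole embryo was frozen for each library, and RNA was amplified with CEL-Seq, which counts the 3' ends of polyadenylated RNA. The 97 embryos came from several matings, were kept at 18 °C, and were labelled hourly from 1 to 95 h, then 97 and 120 h. The labels name no strain, genotype, treatment or larval stage, so every group here is a span of hours in whole embryos. No hour was sampled more than once, so the spread within a span holds embryo, library and development together, and p-values measure that spread. In whole embryos, fewer cells of a type and less RNA per cell cannot be told apart.

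In this worm the trochophore is a round, freely swimming larva that is driven by a band of ciliated cells and senses its surroundings with an apical organ. It lengthens into a metatrochophore and then a nectochaete, which has segments, muscles, chaetae and parapodia. Many larval transcripts are switched on at the trochophore stage and stay on, while others accompany structures or cells that exist for a limited time. The identifiers are not paired with gene names in the sources used here, so no function is given to any member, and the stage name is only the usual one for hours around the onset.

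Totals per embryo, leaving out PT_v1_tr_02502, which alone held 33.6% of transcript counts, had a median of 492850 and ran from 2816 to 1893173. Libraries labelled 21, 24, 48, 62 and 72 h stood apart from their hour or were very shallow, and are given separately. Over transcripts that are no members, the 24, 48 and 72 h libraries were most alike the smoothed profile of 91, 28 and 50 h (Pearson r = 0.74, 0.89 and 0.74 across transcripts, which are not independent). The 21 and 62 h libraries matched no hour well, with highest r of 0.51 at 18 h and 0.22 at 56 h. Embryos of 1 to 51 h other than the 24 h one carry numbers 1 to 50, and later hours carry numbers from 51 up. Of all values above 0, those of 1 to 5 counts made up 5.66% at 52 to 72 h and 22.3% at 37 to 51 h, and the share of member values at 0 was 60.0% at 52 to 72 h and 2.5% at 37 to 51 h. The part of this difference in the results across 51 and 52 h was not tested.

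Summed over the 20 members, the level was 18.9 ± 13.3 CPM at 1 to 12 h (SD, n = 12) and 52.8 ± 35.8 CPM at 13 to 23 h (n = 10). It was 613 ± 285 CPM at 25 to 30 h (n = 6), 968 ± 331 CPM at 31 to 36 h (n = 6) and 1129 ± 296 CPM at 37 to 42 h (n = 6). It was 1008 ± 258 CPM at 43 to 51 h (n = 8), 426 ± 175 CPM at 52 to 61 h (n = 10) and 181 ± 108 CPM at 63 to 71 h (n = 9). The highest sums thus lay after the hours that chose the members, and the decline began before the hours of the late criterion. At 73 to 94 h the median embryo had 0 CPM and the highest 172 CPM (n = 22). The 47 transcripts that met all but the late criterion, some of which also declined, summed to 1547 ± 589 CPM at 25 to 36 h (n = 12), 5815 ± 675 CPM at 43 to 51 h (n = 8) and 4983 ± 786 CPM at 73 to 94 h (n = 22).

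**Figure D1:**
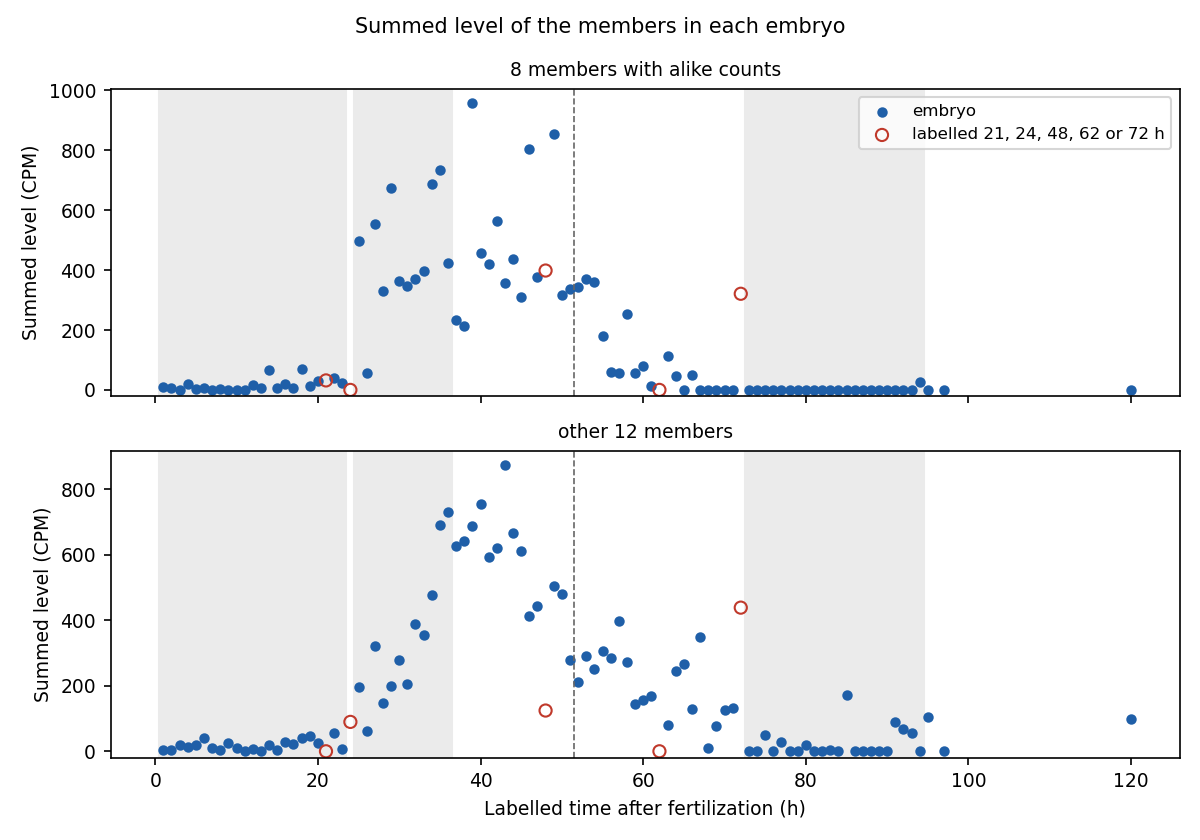
Summed level in CPM of the 8 members with alike counts (top) and of the other 12 members (bottom) in each embryo against its labelled hour. Points are embryos, open circles are the libraries labelled 21, 24, 48, 62 and 72 h, grey marks the hours that chose the members, and the dashed line divides embryo numbers up to 50 from those from 51 up. The 8 stay between 310 and 853 CPM at 43 to 51 h and are at 0 in nearly all embryos after 66 h, while some of the 12 reappear in single late embryos.

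The 20 members were not 20 separate patterns. The counts of 8 members followed each other across embryos more closely than they followed the other 12, though not all within counting noise: PT_v1_tr_10803, PT_v1_tr_01763, PT_v1_tr_01764, PT_v1_tr_01765, PT_v1_tr_01768, PT_v1_tr_10805, PT_v1_tr_10320 and PT_v1_tr_08593. The measure was the chi-square of 2 transcripts' counts over 92 embryos divided by its degrees of freedom, which is near 1 when they differ by counting noise alone. Within 5 of them (PT_v1_tr_01765, PT_v1_tr_01768, PT_v1_tr_10805, PT_v1_tr_10320 and PT_v1_tr_08593) all 10 pairs lay between 0.649 and 0.913, so these transcripts differed by no more than counting noise. PT_v1_tr_10803 and PT_v1_tr_01763 also differed by no more than that, at 0.880. Between this pair and the 5, values ran from 2.34 to 2.97, against 3.62 to 23.9 between the 8 and the other 12 members.

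Reads of near-identical sequences could be split among identifiers by the authors' counting, so the separate values of the 8 are uncertain and they are not 8 independent observations. PT_v1_tr_01764 differed from all others of the 8 by more than counting noise, by less from the pair (1.61 and 1.87) than from the 5 (2.20 to 2.82). The identifiers PT_v1_tr_01763, PT_v1_tr_01764 and PT_v1_tr_01765 are consecutive. A further 6 transcripts, PT_v1_tr_00713, PT_v1_tr_01766, PT_v1_tr_01767, PT_v1_tr_10800, PT_v1_tr_10802 and PT_v1_tr_10804, had counts within 2.5 of at least 1 of the 8. They missed membership on the early limit alone, with 3.12 to 4.16 CPM at 1 to 23 h, 80.4 to 105 CPM at 25 to 36 h and 0 to 0.560 CPM at 73 to 94 h. The consecutive PT_v1_tr_08629 and PT_v1_tr_08630 were a second such pair, at 1.07, and PT_v1_tr_07796 matched PT_v1_tr_07795, which is no member. Consecutive numbers did not always go with alike counts: PT_v1_tr_10320 belonged to the 5, and PT_v1_tr_10321 had a time course of its own.

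**Figure D2:**
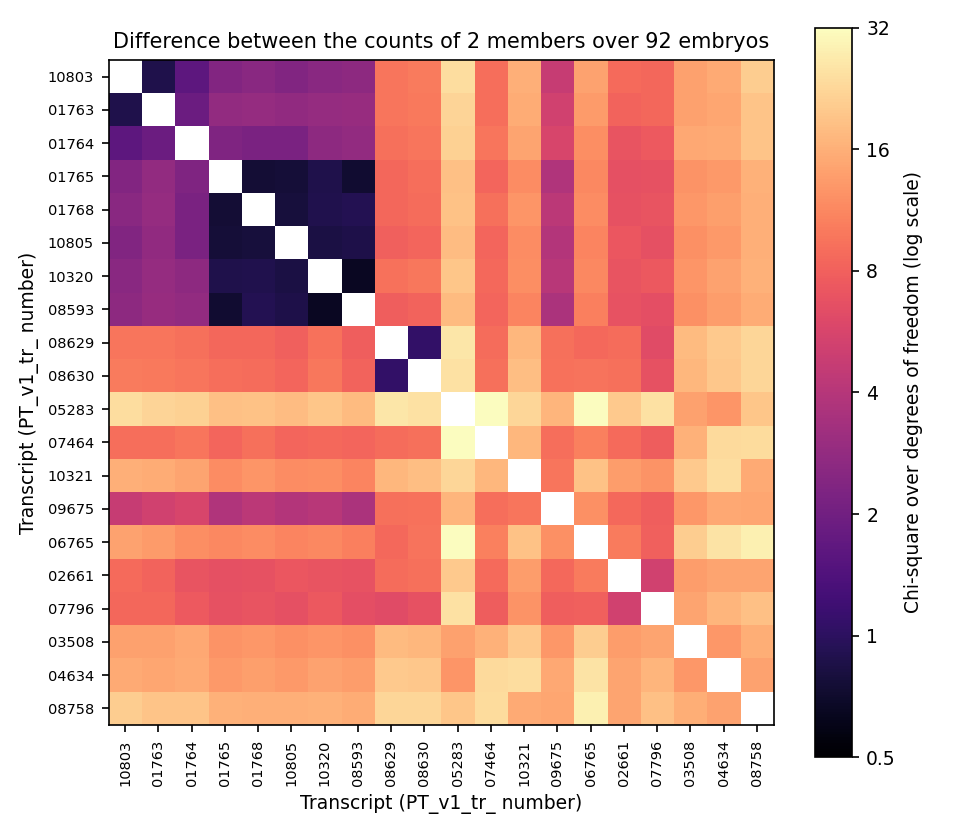
Chi-square over degrees of freedom between the counts of each 2 members over 92 embryos, on a log colour scale. Dark cells are pairs that differ by about counting noise: the block of 5, the pair PT_v1_tr_10803 and PT_v1_tr_01763, and the pair PT_v1_tr_08629 and PT_v1_tr_08630.

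The near absence of the 8 alike members at 1 to 23 h and their presence at 25 to 36 h belong to the choice. After those hours they held their level up to 51 h. Their summed level was 15.9 ± 20.1 CPM at 1 to 23 h (SD, n = 22), 453 ± 190 CPM at 25 to 36 h (n = 12), 475 ± 272 CPM at 37 to 42 h (n = 6) and 474 ± 223 CPM at 43 to 51 h (n = 8). Within 25 to 36 h the lowest embryo, at 26 h, had 55.9 CPM, the median was 411 CPM and the highest, at 35 h, had 735 CPM. The embryo of 26 h was thus far below its neighbours of 25 and 27 h in all 8.

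Hour by hour the 8 summed to 344 CPM at 52 h, 371 CPM at 53 h, 360 CPM at 54 h, 180 CPM at 55 h and 60.2 CPM at 56 h. They were at 58.0 CPM at 57 h, 255 CPM at 58 h, 55.8 CPM at 59 h, 78.7 CPM at 60 h and 11.4 CPM at 61 h. The embryos of 52 to 54 h, which carry numbers from 51 up, lay within the 310 to 853 CPM of 43 to 51 h, and the lower values came from 55 h on. At 63 to 71 h only 4 of 9 embryos had any count of the 8, the highest being 114 CPM at 63 h. Among the 22 embryos of 73 to 94 h only the one of 94 h had counts, at 27.3 CPM, and there were none at 95, 97 and 120 h.

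The hours of decline, which the chi-square includes, show embryos in which the counts of the 8 were unequal. The embryos of 56 and 57 h had 0 counts of PT_v1_tr_10803, PT_v1_tr_01763 and PT_v1_tr_01764 together, beside 16 and 36 counts of the 5. The embryos of 64 and 66 h likewise had 0 counts of the 3, beside 33 and 32 of the 5. The reverse balance appeared at 59 h, with 33 counts of the 3 and 13 of the 5, and at 63 h, with 31 and 11. Libraries within a few hours of each other thus differed in which of the 8 had counts. Low counts were rare in all transcripts at these hours, and the split of reads among the 8 is uncertain. Whether the embryos themselves differed in which of the 8 they still held was therefore not tested.

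**Figure D3:**
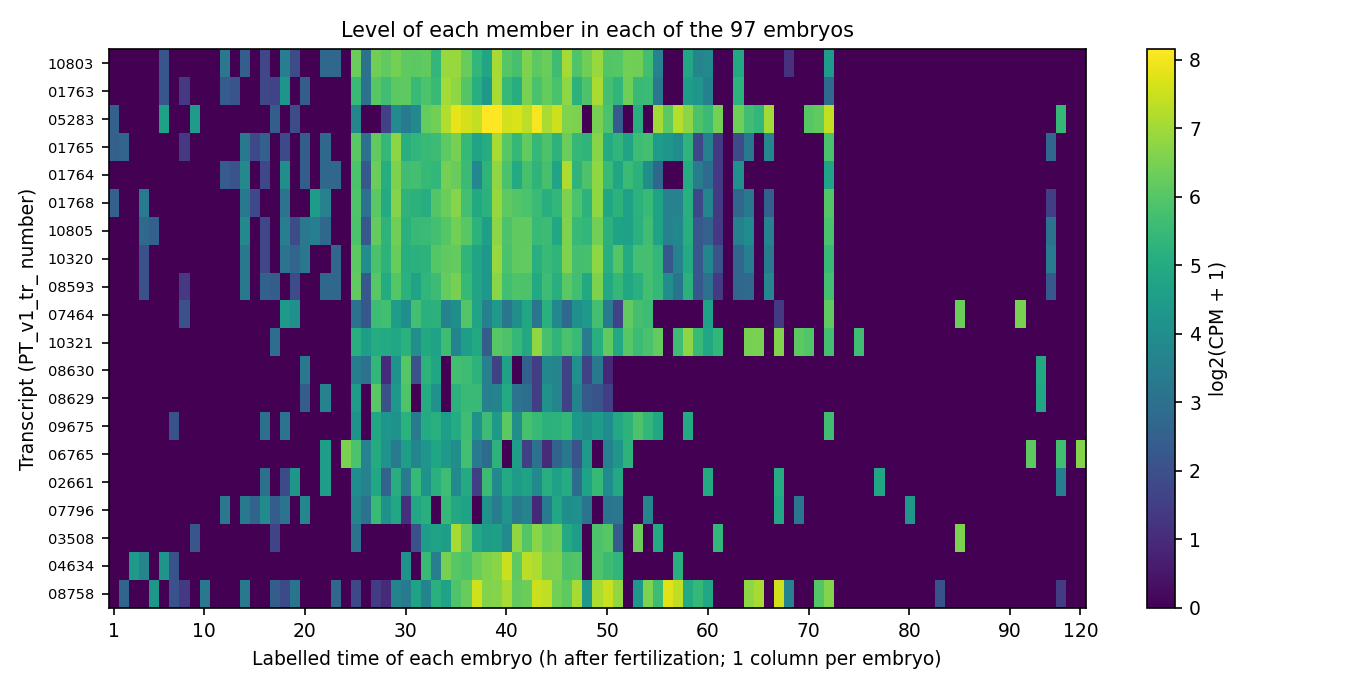
Level of each of the 20 members, as log2(CPM + 1), in each of the 97 embryos in order of labelled hour, with 1 column per embryo. Rows run from the highest to the lowest level at 25 to 36 h, and the 8 alike members form similar rows. Rows PT_v1_tr_05283, PT_v1_tr_03508, PT_v1_tr_04634 and PT_v1_tr_08758 brighten later than the others.

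The other 12 members differed in when they began. PT_v1_tr_05283, PT_v1_tr_04634, PT_v1_tr_08758 and PT_v1_tr_03508 had low values through 25 to 30 h and higher ones at 31 to 36 h, which is a description, since these hours chose the members. PT_v1_tr_05283 had 12.2, 0, 0, 2.03, 14.3 and 9.54 CPM in the embryos of 25 to 30 h, then 13.9, 74.5, 84.2, 148, 230 and 196 CPM in those of 31 to 36 h. It had 215 ± 53.4 CPM at 37 to 42 h (SD, n = 6). PT_v1_tr_08758 had 38.4 ± 23.8 CPM at 31 to 36 h and 4.40 ± 4.93 CPM at 25 to 30 h (n = 6 each).

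PT_v1_tr_04634 had 43.9 ± 33.5 CPM at 31 to 36 h and 2.78 ± 6.81 CPM at 25 to 30 h (SD, n = 6 each), where only the embryo of 30 h had counts. PT_v1_tr_03508 had 45.9 ± 48.3 CPM at 31 to 36 h and 1.22 ± 2.98 CPM at 25 to 30 h (n = 6 each), with all 3 counts of 25 to 30 h in the embryo of 25 h. PT_v1_tr_10321, by contrast, had much the same level in both spans, with 25.4 ± 13.0 CPM at 31 to 36 h and 30.4 ± 4.71 CPM at 25 to 30 h (n = 6 each).

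With onset taken as the middle hour of the first 3 neighbouring libraries whose pooled level reached 10 CPM, the median member had its onset at 23 h. That run holds the embryos of 22, 23 and 25 h, and the 8 alike members summed to 39.6, 22.1 and 496 CPM in them, so the embryo of 25 h carried it. The latest were PT_v1_tr_03508 at 32 h and PT_v1_tr_05283 and PT_v1_tr_08758 at 30 h. PT_v1_tr_04634 reached that level in the run around 3 h, from 7 counts at 3 h and 4 counts at 4 h. It had 17 counts in 4 embryos of 1 to 12 h and none at 13 to 23 h. The highest run had its median at 41 h. The last run at 0.25 or more of the 25 to 36 h level had its median at 66 h, and for the 8 alike members it was 59 h in each. No member had this hour between 59 and 73 h. The median was 60 h with runs of 5 libraries and 73 h with the libraries that stood apart kept in. Counts in 1 or 2 late embryos set the hour of the last run to 92 h or later in PT_v1_tr_07464, PT_v1_tr_08629, PT_v1_tr_08630, PT_v1_tr_06765 and PT_v1_tr_05283. Single embryos likewise set it to between 76 and 86 h in PT_v1_tr_10321, PT_v1_tr_02661, PT_v1_tr_07796 and PT_v1_tr_03508.

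The members also differed in how they continued at 37 to 51 h, hours the choice did not use. Relative to 25 to 36 h, pooled levels at 37 to 51 h were highest in PT_v1_tr_08758 (6.28 times), PT_v1_tr_04634 (4.33 times) and PT_v1_tr_03508 (2.63 times). They were lowest in PT_v1_tr_08630 (0.320 times), PT_v1_tr_06765 (0.342 times) and PT_v1_tr_08629 (0.374 times). The 8 alike members lay between 1.02 and 1.19 times. No member had dropped below 0.25 by 37 to 51 h, 9 had by 52 to 72 h, and 11 still had at least that share at 52 to 72 h. The 8 alike members lay on both sides of that limit at 52 to 72 h, between 0.200 and 0.343 times. The split therefore depends on where the limit is set. Each ratio shares its denominator with the choice of members, so they are given as a description.

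**Figure D4:**
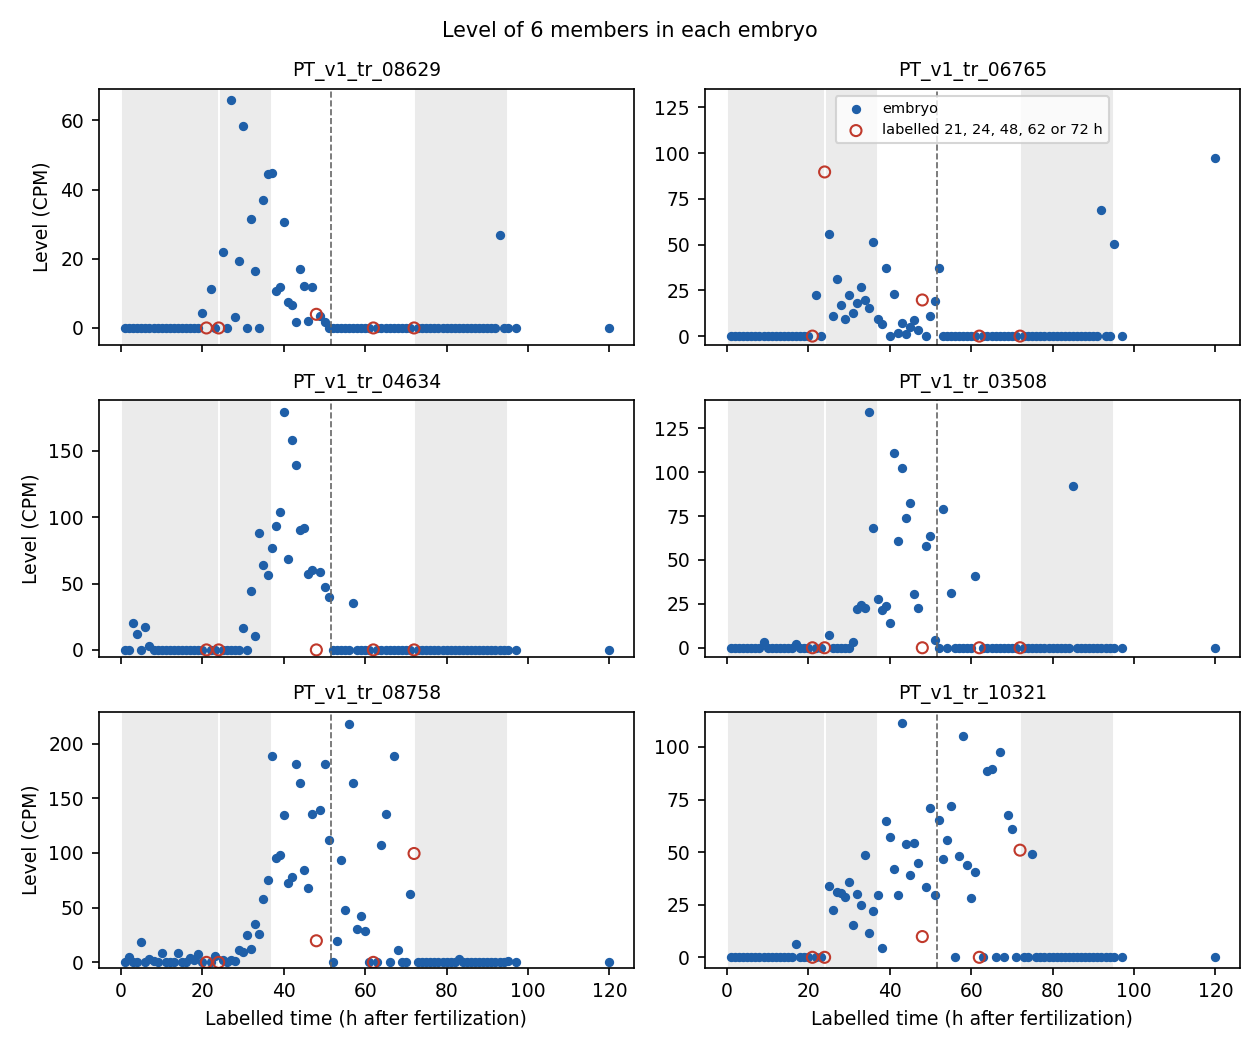
Level in CPM of 6 members with different time courses in each embryo against its labelled hour, with open circles for the libraries labelled 21, 24, 48, 62 and 72 h, grey for the hours that chose the members and a dashed line between 51 and 52 h. PT_v1_tr_08629 and PT_v1_tr_04634 stop near 51 h, PT_v1_tr_08758 and PT_v1_tr_10321 continue to about 71 h, and PT_v1_tr_06765 returns in embryos of 92, 95 and 120 h.

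Levels were then compared between neighbouring windows in hours the choice did not use, with edgeR's quasi-likelihood test over all transcripts and Benjamini-Hochberg adjustment, and an adjusted p under 0.05 as the threshold. At 43 to 51 h against 37 to 42 h, both within embryo numbers up to 50, 0 of 20 members were lower and 0 were higher. Of all 10295 transcripts tested, 0.233% were lower and 1.38% were higher. On simulated counts this test recovered only 16% of 4-fold changes, so a count of 0 does not mean stable levels. No member had an unadjusted p under 0.05 in edgeR, where 13.4% of all transcripts did, and DESeq2 called 0 members with 1 at an unadjusted p under 0.05. The log2 changes ran from -1.39 for PT_v1_tr_08629 (SE 0.74, edgeR adjusted p = 0.453) to 0.69 for PT_v1_tr_10321 (SE 0.43, edgeR adjusted p = 0.564).

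PT_v1_tr_05283 ranged over 4.21, 93.0 and 261 CPM at 43 to 51 h (lowest, median and highest of 8), against 162, 199 and 283 CPM at 37 to 42 h (of 6). The 2 windows overlapped, and the log2 change was -0.76 (SE 0.45, edgeR adjusted p = 0.541). Within the later window its level was 4.21 CPM in the embryo of 51 h, against 261 CPM in that of 43 h. A fit of a straight line in hour over both windows in place of the windows gave a log2 difference of -1.31 between their mean hours (edgeR adjusted p = 0.0269), where 1.29% of all transcripts were lower.

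At 52 to 61 h against 43 to 51 h, PT_v1_tr_08629, PT_v1_tr_08630 and PT_v1_tr_04634 fell and no member rose. That was 3 of 20 members lower, beside 9.20% lower and 0.996% higher of all 10346 transcripts tested, so the members' share was near the background. Age and embryo number cannot be told apart here. The median log2 change was -1.59 over the members and -0.53 over all transcripts. With DESeq2 size factors, total counts or spike-in totals as the scale, the members' median was -1.19 to -1.37 and that of all transcripts -0.19 to -0.30. All 20 members had log2 changes below 0 under the first scale, and 18 or 19 did under the 3 others, where PT_v1_tr_07464 or PT_v1_tr_10321 lay above 0. The late limit was set on the members and not on all transcripts, so the difference in their medians is partly built into the choice. The alike members among the 20 are also not independent observations.

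PT_v1_tr_08629 had 0 counts in all 10 embryos of 52 to 61 h, against 0, 2.66 and 17.0 CPM at 43 to 51 h (lowest, median and highest of 8). Against a floor of 3 counts over the later window it was at least 17.0-fold lower, with a fitted log2 change of -5.54 (SE 1.23, edgeR adjusted p = 0.00558). PT_v1_tr_08630 likewise had 0 counts in all 10 embryos, against 0, 5.45 and 16.0 CPM, and was at least 18.4-fold lower (edgeR adjusted p = 0.00542). The embryo of 51 h had none of either, so the windows met at 0, and since both transcripts share their pattern they amount to 1 observation. Their level was already 18.7 ± 15.5 and 13.2 ± 14.7 CPM at 37 to 42 h (SD, n = 6 each). After 51 h the only counts of either came from the embryo of 93 h, at 26.9 and 29.6 CPM. Both fold bounds cover counting error only. Of all values above 0, those of 1 to 5 counts made up 5.43% at 52 to 61 h and 20.3% at 43 to 51 h. The part of that difference in these folds was not tested, so the true folds may be smaller.

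PT_v1_tr_04634 had 0 CPM in 9 of 10 embryos of 52 to 61 h and 35.4 CPM in that of 57 h, against 40.0, 59.4 and 139 CPM at 43 to 51 h (lowest, median and highest of 8). The windows did not overlap, and the log2 change was -4.54 (SE 1.09, edgeR adjusted p = 0.00647). Without the embryo of 57 h the later window held 0 counts and the fitted log2 change was -9.09 (edgeR adjusted p = 1.28e-05), a value that depends on the prior count. It had no count in any later embryo. Its levels at 37 to 42 h were 68.9, 98.8 and 179 CPM (lowest, median and highest of 6). Apart from a few counts before 13 h, the transcript thus ran from about 30 h to 51 h, with a single later embryo.

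None of the 8 alike members passed the threshold alone at 52 to 61 h; PT_v1_tr_01764 had the lowest adjusted p (log2 change -2.17, SE 0.81, edgeR adjusted p = 0.0945). Counted as 1 summed row, a choice made after the data were seen, the 8 fell by 1.65 on the log2 scale (SE 0.47, edgeR adjusted p = 0.0235). The summed row was fitted with TMM scaling alone and not with the other scales. The lowest, median and highest sums were 11.4, 129 and 371 CPM at 52 to 61 h, against 310, 367 and 853 CPM at 43 to 51 h, so the windows overlapped in the embryos of 52 to 54 h. Leaving out the embryo of 52 h raised the count of members lower to 5, by PT_v1_tr_01764 (edgeR adjusted p = 0.0475) and PT_v1_tr_06765 (edgeR adjusted p = 0.00675), beside 10.1% of all transcripts. With the filterByExpr filter, which removed PT_v1_tr_08629, PT_v1_tr_08630, PT_v1_tr_06765 and PT_v1_tr_07796, 1 member was lower, PT_v1_tr_04634 (edgeR adjusted p = 0.0183), beside 3.43% of all transcripts.

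Of the 47 transcripts that met all but the late criterion, 2 were lower and 1 was higher at 52 to 61 h against 43 to 51 h, with a median log2 change of -0.26. With the 3 other scales 0 were lower and 2 higher, and the median was 0.07, -0.0081 and 0.08 with DESeq2 size factors, total counts and spike-in totals, so its sign depends on the scale. The late limit itself divides these 47 from the members, so the difference in their medians is partly built into the choice. Members that stayed near their earlier level in this comparison were PT_v1_tr_10321 and PT_v1_tr_07464. PT_v1_tr_10321 had 0, 47.5 and 105 CPM at 52 to 61 h (lowest, median and highest of 10), against 29.5, 49.4 and 111 CPM at 43 to 51 h (of 8). Its windows overlapped nearly throughout, with a log2 change of -0.32 (SE 0.61, edgeR adjusted p = 0.870). PT_v1_tr_07464 had counts in only 4 of 10 embryos at 52 to 61 h, at 72.5, 53.0, 48.0 and 24.6 CPM for 52, 53, 54 and 60 h, and its median was 0 CPM, against 11.1 CPM at 43 to 51 h. Nearly the same mean was thus reached with fewer embryos.

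**Figure D5:**
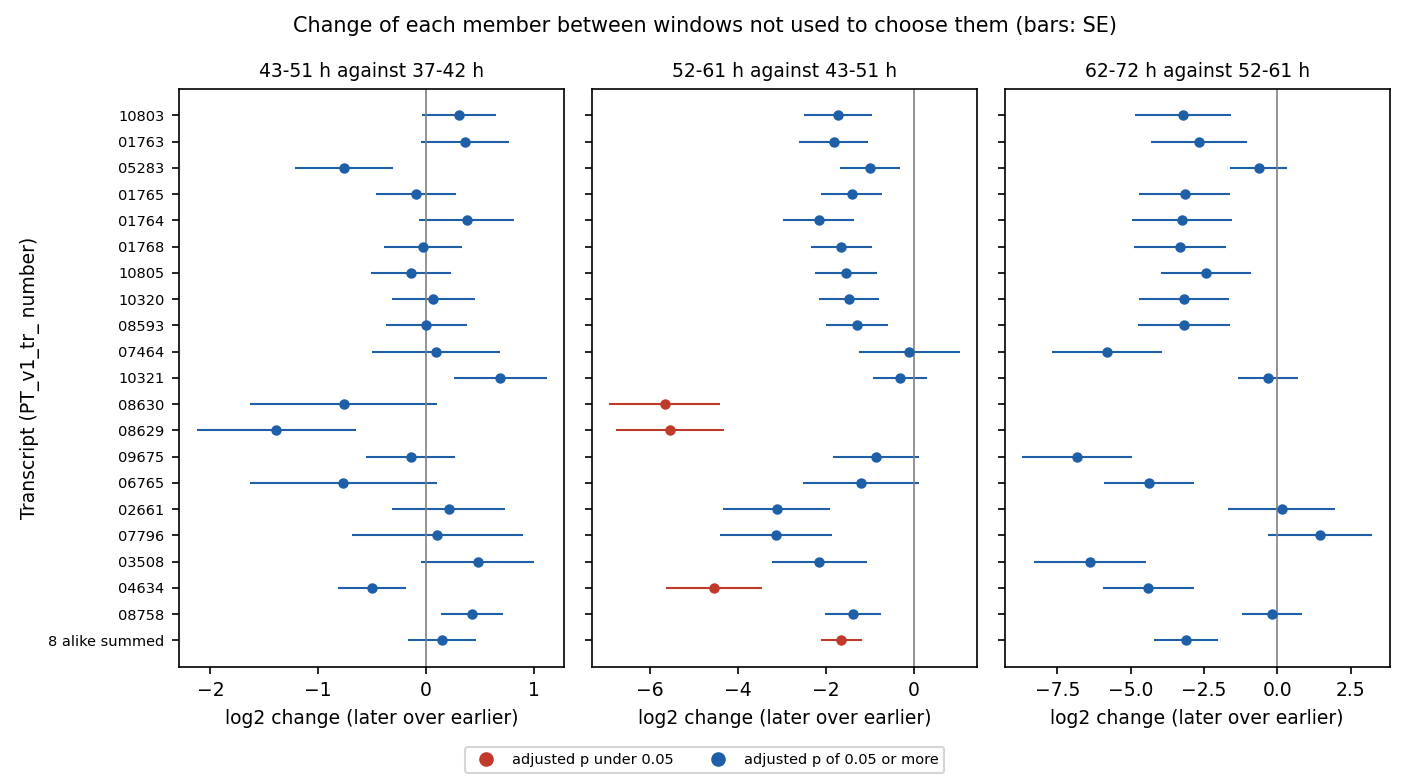
log2 change with its standard error of each member, later window over earlier window, in the 3 comparisons of hours that did not choose the members, from edgeR's quasi-likelihood fit over all transcripts. Red points passed an adjusted p of 0.05: none at 43-51 h, PT_v1_tr_08630, PT_v1_tr_08629, PT_v1_tr_04634 and the sum of the 8 alike members at 52-61 h, and none at 62-72 h, where PT_v1_tr_08629 and PT_v1_tr_08630 had no counts to test.

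At 62 to 72 h against 52 to 61 h, both within embryo numbers from 51 up, the 9 embryos of 63 to 71 h entered the later window. Of 18 members with enough counts to test, 0 were lower and 0 were higher, beside 0.373% lower and 0.131% higher of all 9920 transcripts. On simulated counts this comparison recovered only 20% of 4-fold changes. In edgeR 9 members had an unadjusted p under 0.05, as did 13.5% of all transcripts, and 6 did with DESeq2 size factors or total counts as the scale. DESeq2's own test also called 0 members, with 9 at an unadjusted p under 0.05. The log2 change was below 0 in 16 of the 18, and its median was -3.18 over the members and -0.11 over all transcripts. The late limit was set on the members and not on all transcripts. A later fall of the members, and this difference in medians, are therefore partly built into the choice. The alike members among the 18 are also not independent observations.

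PT_v1_tr_09675 had 0 counts at 63 to 71 h, against 5 of 10 embryos with counts at 52 to 61 h, where the highest had 57.9 CPM. It was at least 39.6-fold lower (log2 change -6.83, SE 1.88, edgeR adjusted p = 0.0656). PT_v1_tr_03508 had 0 counts, against 3 of 10 embryos with counts and a highest of 78.8 CPM, and was at least 22.1-fold lower (edgeR adjusted p = 0.0656). PT_v1_tr_07464 had 1 count, against 136 counts, so its pooled level was 0.0106 of the earlier one (exact 95% counting interval 0.000268 to 0.0603, edgeR adjusted p = 0.0656). That interval and the floors cover counting error only, since reads amplified without molecular identifiers are not independent molecules. At 52 to 61 h their medians were already 14.1 CPM for PT_v1_tr_09675 and 0 for PT_v1_tr_03508 and PT_v1_tr_07464, so the windows overlapped at 0. PT_v1_tr_09675 was chosen for description after its values were seen.

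Other settings moved this count more than any other. In 1 fit over all 4 windows 11 members were lower, beside 7.76% of all transcripts, among them PT_v1_tr_10803, PT_v1_tr_01765, PT_v1_tr_01764, PT_v1_tr_01768, PT_v1_tr_10320 and PT_v1_tr_08593 of the 8. A straight line in hour called 3 members lower, PT_v1_tr_09675, PT_v1_tr_07464 and PT_v1_tr_06765, beside 3.65% of all transcripts. With the libraries labelled 48, 62 and 72 h kept in, 0, 3 and 3 members were lower in the 3 comparisons in order of time, beside 0%, 10.1% and 5.94% of all transcripts. The 3 of the last comparison were PT_v1_tr_03508, PT_v1_tr_06765 and PT_v1_tr_04634. The summed row of the 8 had a log2 change of -3.11 (SE 1.09, edgeR adjusted p = 0.0833).

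Some members did not decline in step with the others at 52 to 71 h. PT_v1_tr_10321 had counts in 5 of 9 embryos of 63 to 71 h, with 0, 60.8 and 97.4 CPM as the lowest, median and highest, against 0, 47.5 and 105 CPM at 52 to 61 h. PT_v1_tr_08758 had 0, 11.1 and 188 CPM at 63 to 71 h, against 0, 36.5 and 218 CPM at 52 to 61 h. PT_v1_tr_05283 had 0, 49.5 and 130 CPM at 63 to 71 h, against 0, 62.4 and 150 CPM at 52 to 61 h. Each of the 3 thus mostly had either no counts or a high level in neighbouring embryos. Whether the embryos without counts lacked the transcript was not tested. The log2 changes of the 3 lay between -0.63 and -0.18 with edgeR adjusted p = 0.9998 for each.

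The hours after 72 h belong to the late block up to 94 h and are described only. Of 440 values of the 20 members in 22 embryos, 96.6% were 0. PT_v1_tr_10803, PT_v1_tr_01763, PT_v1_tr_05283, PT_v1_tr_01764, PT_v1_tr_09675 and PT_v1_tr_04634 had no counts at all at 73 to 94 h. In several others all counts of the block came from 1 embryo: 49.1 CPM of PT_v1_tr_10321 at 75 h, 92.3 CPM of PT_v1_tr_03508 at 85 h and 69.0 CPM of PT_v1_tr_06765 at 92 h. PT_v1_tr_07464 had counts at 85 and 91 h, up to 90.3 CPM.

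PT_v1_tr_06765 was the member whose loss was least complete after the late block. It had 50.4 CPM at 95 h, 0 CPM at 97 h and 97.5 CPM at 120 h. The library labelled 24 h, which carries number 95 and was most alike the profile of 91 h, had 89.7 CPM of PT_v1_tr_06765 and no count of any other member. Its level at 25 to 36 h was 24.3 ± 15.1 CPM (SD, n = 12). PT_v1_tr_05283 had 42.0 CPM at 95 h and none at 97 and 120 h.

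Values near the limits of the choice were close on both sides. For the early limit, PT_v1_tr_07796 with 2.97 CPM and PT_v1_tr_08758 with 2.82 CPM at 1 to 23 h were inside, and PT_v1_tr_10802 with 3.12 CPM and PT_v1_tr_04835 with 3.42 CPM were outside. For the onset limit, PT_v1_tr_08758 with 20.1 CPM and PT_v1_tr_04634 with 20.8 CPM at 25 to 36 h were inside, and PT_v1_tr_06782 with 19.9988 CPM and PT_v1_tr_08265 with 19.6 CPM were outside. For the late limit, PT_v1_tr_07464 at 0.180 and PT_v1_tr_06765 at 0.164 of the 25 to 36 h level were inside, and PT_v1_tr_07310 at 0.251 and PT_v1_tr_05596 at 0.279 were outside. A further 1090 transcripts met the other criteria and were above 3 CPM at 1 to 23 h.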

How the data were processed

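The authors deposited raw counts, whole numbers for each transcript and embryo. The tools named were HTSeq 0.5.4p3, Bowtie2 2.1.0 and CASAVA 1.8, per the submitters' processing notes, and what each did is not given in the sources used here. No molecular identifiers are named, so counts are reads. The 5 summary rows held 57.7% of all counts and 92 spike-in rows 4.09%; both stayed out of totals and tests, as did PT_v1_tr_02502.

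Pooled CPM is summed counts over summed totals. Windows were compared with edgeR 4.0.16 (quasi-likelihood, robust, TMM, R 4.3.3) on transcripts with at least 15 counts over both windows, adjusted over all of them; DESeq2 1.42.0 was an alternative. Libraries labelled 48, 62 and 72 h were left out of tests and blocks, and those labelled 21 and 24 h out of blocks. Each SE is the size of the log2 change divided by the root of its F statistic. Folds against 0 counts use a floor of 3 counts over the window. Other steps used Python 3.11.15, numpy 2.4.6, scipy 1.17.1, pandas 2.3.3 and matplotlib 3.10.9. On simulated counts the fits recovered 16%, 23% and 20% of 4-fold changes in the 3 comparisons in order of time. Of 16-fold changes they recovered 90%, 97% and 100%. The simulated transcripts all had the same dispersion, and only those with many counts were changed, so these shares need not hold for the members. PT_v1_tr_09675, at a log2 change of -6.83 (SE 1.88) in the last comparison, was not called. A member that was not called may therefore still have changed.

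The members, windows and tests were chosen with earlier results of these data known. Transcripts named were the 10 members highest at 25 to 36 h, up to 4 called per direction and comparison, the 3 highest and 3 lowest in 37 to 51 h over 25 to 36 h, the 2 nearest each limit on either side and those with consecutive identifiers; others were named after their values were seen.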

Additional observations from a re-analysis of the deposited data

Results flagged for a closer look

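In 5 members the highest embryo among the 10 of 52 to 61 h passed Dixon's criterion, out of 42 groups examined. PT_v1_tr_06765 had 37.2 CPM at 52 h, PT_v1_tr_02661 had 30.8 CPM at 60 h, PT_v1_tr_07796 had 12.0 CPM at 54 h and PT_v1_tr_04634 had 35.4 CPM at 57 h, each with 0 in the other 9 embryos, so that any level in 1 embryo would pass. The usual chance rate of about 1 in 20 groups does not apply to such values, and they say only that 1 embryo held all counts. PT_v1_tr_03508 had 78.8 CPM at 53 h, with the next embryo at 40.7 CPM.

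The members were also present in libraries that entered no comparison. The library labelled 24 h had a summed level of 89.7 CPM, all of it PT_v1_tr_06765, above the 7.27 CPM that a count of 0 allows there. The library labelled 48 h had 523 CPM from 17 members, above 5.92 CPM. Of the 4 members with low values at 25 to 30 h it had no counts of PT_v1_tr_05283, PT_v1_tr_04634 and PT_v1_tr_03508, and 19.7 CPM of PT_v1_tr_08758. Over the other transcripts it was most alike the profile of 28 h. The library labelled 72 h had 759 CPM from 13 members, above 3.55 CPM, and over the other transcripts it was most alike the profile of 50 h.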

How the results depend on the processing

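Counts of members lower depended on the setting in each comparison, and counts of members higher were 0 in every fit run. At 43 to 51 h against 37 to 42 h, 1 member was lower with a straight line in hour. At 52 to 61 h against 43 to 51 h, 1 was lower with filterByExpr. At 62 to 72 h against 52 to 61 h, 3 were lower with the libraries labelled 48, 62 and 72 h kept in, 11 in 1 fit over 4 windows, 1 with the log2 total as a covariate and 3 with a straight line in hour. Leaving out each embryo in turn gave 0 to 0, 3 to 5 and 0 to 0 members lower in the 3 comparisons. With 0.5 in place of 0.25 as the share, 4 members rather than 0 had dropped by 37 to 51 h, and 4 rather than 11 still had it at 52 to 72 h. Outside the fits without single embryos, 189 alternative values of the members kept their direction and side of the threshold, or their size, and 16 did not. Single log2 changes could change sign. At 52 to 61 h against 43 to 51 h, 20 members were below 0 in the main fit and 18 with spike-in totals. The causes were not tested. At these totals a level of a few CPM is a handful of counts or fewer. No paired analysis was possible because replicate numbers only name embryos within a window and each hour was sampled once.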
